A study of Mus musculus with 16 samples.

Results

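Kupffer cells are the macrophages that reside in the sinusoids of the liver, and 10 genes that mark them were followed here through Cd exposure and Se supplementation. The genes were Cd163, Timd4, Marco, Clec4f, Vsig4, Folr2, Cd5l, C1qa, C1qb and C1qc, each found once by its gene name among the 57010 genes of the deposited expression table. They were chosen by their known place in resident liver macrophages, but also from earlier results on these same libraries, in which such genes were low in mice given Cd. Their levels are therefore given as a description with no p-value printed for any single one of them. Where 1 of them is named as called or as passing a threshold, nothing is read from it. Levels were given as TPM, a unit that divides reads by transcript length and gives every library an equal total. All 10 genes averaged 1 TPM or more, and 0 of them was listed at 0 in any library. Cd163 and Timd4 reached that mean only through mice without Cd, being below 1 TPM in every mouse given Cd.

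Liver RNA of 16 adult male wild-type C57BL/6J mice was sequenced, with 4 mice in each group. Control mice received neither agent. The Cd group was injected intraperitoneally with CdCl2 at 1.25 mg/kg daily for 7 days, the Se group ate selenomethionine (SeMet) at 2 ppm for 3 months, and the Cd+Se group received both, with Cd over the last days of the diet. Each library is liver tissue of 1 mouse, in which 12 hepatocyte genes such as Alb summed to between 65900 and 141000 TPM, so that fewer macrophages and less RNA per macrophage cannot be told apart. The unit holds no read depth, which is unknown here. Mt1 and Mt2, the metallothionein genes that metals induce, were higher in every mouse of the Cd and Cd+Se groups than in every control mouse, with Mt1 ranging from 50.91 to 221.04 TPM in control, 3178.11 to 4899.18 in Cd, 3621.35 to 6070.32 in Cd+Se and 64.34 to 431.03 in Se mice.

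Kupffer cells descend from embryonic precursors and renew themselves in place, and they take on their identity from signals of the neighbouring endothelial, stellate and liver cells. They clear bacteria, worn red cells, haemoglobin and dying cells from the portal blood, with a set of scavenger and complement receptors. When they are lost, monocytes from the blood can enter the liver and acquire part of the same programme, with TIM4, the product of Timd4, known to appear late on such newcomers. The genes are described below in the order of these tasks: scavenger and phagocytic receptors, lectin, complement and folate receptors, and secreted proteins.

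In the Cd group all 10 genes were lower than in control, and in each of them the highest Cd mouse was below the lowest control mouse. Among the 11766 tested genes, those averaging 1 TPM or more over the libraries, 27.8% had groups that did not overlap in this direction. The mean of the Cd mice ranged from 3.46% of the control mean for Cd163 to 60.4% for C1qb. The receptors stood at the low end of this range and the secreted proteins at the high end. Mice given Cd together with Se had means between 8.7% of control, for Cd163, and 77.7%, for C1qb, and mice given Se alone between 78.4%, for Cd5l, and 96.4%, for Cd163.

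**Figure D1:**
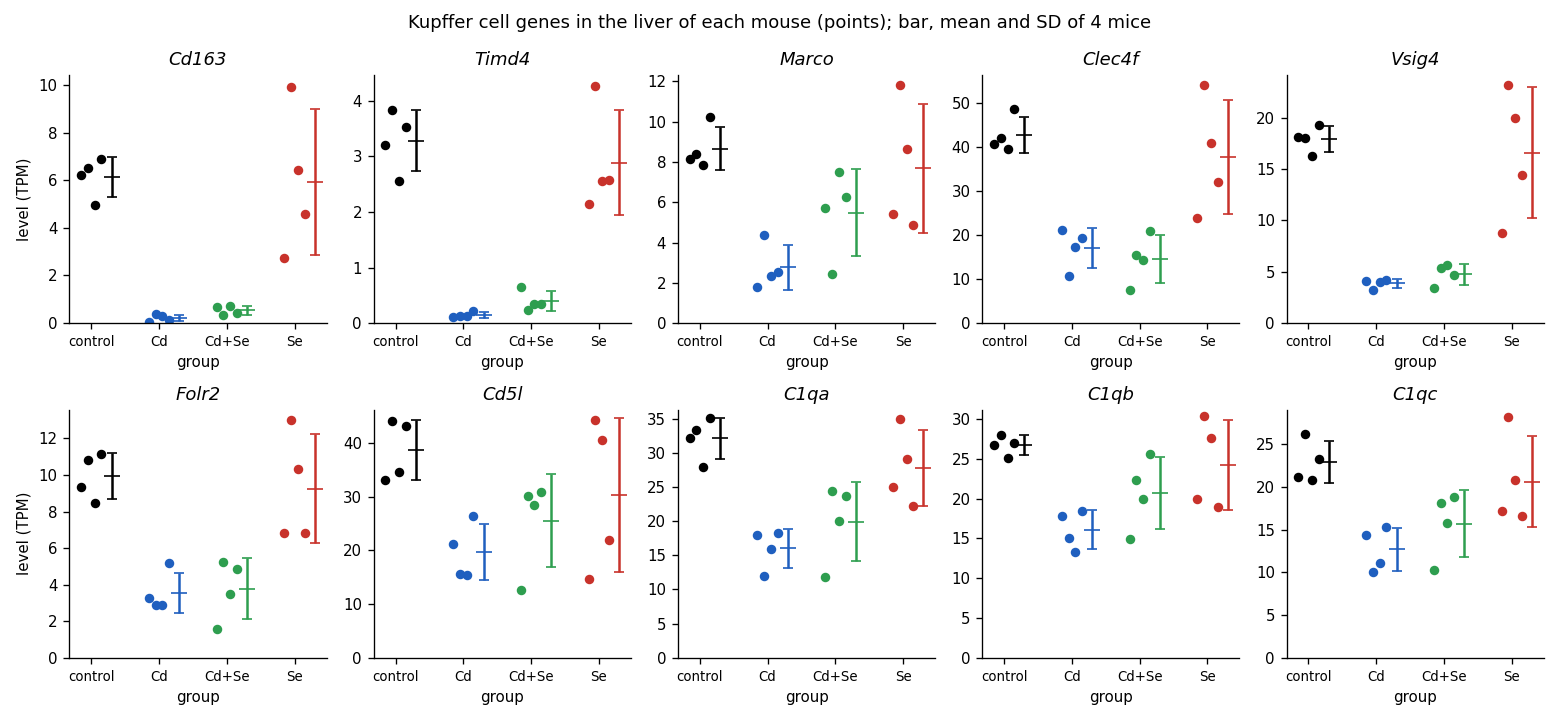
Level of each gene (TPM, linear axis from 0) in each of the 16 mice, with a horizontal bar and error bar for the mean and SD of the 4 mice of a group. Every Cd mouse lies under every control mouse in all 10 panels, and within the Se group mouse 40 is the highest in every panel.

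Cd163 encodes the macrophage receptor for haemoglobin bound to haptoglobin (ENSMUSG00000008845, chr6:124304656-124330527, plus strand, in GENCODE coordinates of the mouse build GRCm38, as for the other genes). It was 6.23, 6.52, 4.95 and 6.89 TPM in control mice 27, 28, 29 and 30. In Cd mice 1, 2, 5 and 6 it was 0.06, 0.36, 0.29 and 0.14 TPM. In Cd+Se mice 13, 14, 15 and 16 it was 0.67, 0.32, 0.72 and 0.43 TPM. All 8 mice given Cd were thus far below the control range, and 3 of the 4 Cd+Se mice were above the highest Cd mouse. In Se mice 39, 40, 41 and 44 it was 2.75, 9.93, 6.43 and 4.6 TPM, a spread that enclosed the control values. The Cd mean of 0.212 ± 0.137 TPM (SD, n = 4) was 28.9-fold lower than the control mean of 6.15 ± 0.843. On the log2(TPM + 1) scale, which understates differences at levels as low as these, the difference was -2.56 (standard error 0.24).

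Timd4 encodes TIM4, a receptor for phosphatidylserine on dying cells (ENSMUSG00000055546, chr11:46810800-46844332, plus strand). Its levels, in the same order of mice, were 3.21, 3.84, 2.56 and 3.52 TPM in control and 0.11, 0.12, 0.12 and 0.22 TPM in Cd. They were 0.65, 0.24, 0.34 and 0.34 TPM in Cd+Se and 2.14, 4.26, 2.56 and 2.58 TPM in Se. Timd4 was the gene of the 10 whose Cd+Se mice all lay above all Cd mice, the closest being 0.24 TPM in Cd+Se and 0.22 TPM in Cd. At levels this low and with unknown depth, the error of these values cannot be given. The distance between those 2 groups was small beside that to control: the Cd mean of 0.142 ± 0.0519 TPM was 23.0-fold and the Cd+Se mean of 0.393 ± 0.178 TPM 8.36-fold lower than the control mean of 3.28 ± 0.546 (n = 4 each). The log2 difference from control was -1.90 (standard error 0.16) in Cd and -1.62 (standard error 0.16) in Cd+Se.

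Marco encodes a scavenger receptor for bacteria and particles (ENSMUSG00000026390, chr1:120474538-120505024, minus strand). It was 8.17, 8.38, 7.83 and 10.24 TPM in control mice and 1.79, 4.37, 2.33 and 2.54 TPM in Cd mice. The Cd+Se mice had 5.69, 2.44, 7.52 and 6.25 TPM, and in Se mice 5.40, 11.82, 8.64 and 4.87 TPM. Here 3 of 4 Cd+Se mice exceeded every Cd mouse, mouse 14 lay among the Cd mice, and all 4 remained under the lowest control. The Cd+Se mean of 5.47 ± 2.16 TPM was 1.99 times the Cd mean of 2.76 ± 1.12. This was the largest difference between these 2 groups on the log2(TPM + 1) scale among the 10 genes, at 0.75 (standard error 0.28). With a pseudocount of 0.1 in place of 1 it was 0.93, below Cd163 at 1.09 and Timd4 at 0.98.

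Clec4f encodes a C-type lectin that in the mouse is made by Kupffer cells and is the usual marker of that cell type (ENSMUSG00000014542, chr6:83644542-83656187, minus strand). It was 40.75, 42.12, 39.48 and 48.57 TPM in control mice and 21.07, 10.67, 17.37 and 19.25 TPM in Cd mice. In Cd+Se mice it was 7.48, 15.50, 14.28 and 20.81 TPM, and in Se mice 23.85, 54.04, 40.91 and 32.06 TPM. The Cd and Cd+Se ranges overlapped, with the lowest value of all 16 in Cd+Se mouse 13. The Cd mean of 17.1 ± 4.54 TPM was 2.5-fold and the Cd+Se mean of 14.5 ± 5.48 TPM 2.94-fold lower than the control mean of 42.7 ± 4.04. Clec4f was the gene of the 10 with a lower mean under Cd+Se than under Cd alone, at a log2 difference of -0.26 (standard error 0.28), and without mouse 13 this difference was 0.0047.

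Vsig4 encodes a complement receptor of the immunoglobulin family that binds C3b-coated particles (ENSMUSG00000044206, chrX:96247203-96293438, minus strand). It was 18.16, 18.05, 16.25 and 19.29 TPM in control mice and 4.07, 3.18, 4.03 and 4.21 TPM in Cd mice. Under Cd+Se the values were 3.37, 5.32, 5.62 and 4.65 TPM, and in Se mice 8.74, 23.19, 19.96 and 14.38 TPM. The 8 mice given Cd formed 1 narrow band well below the rest. The Cd mean of 3.87 ± 0.468 TPM was 4.63-fold and the Cd+Se mean of 4.74 ± 0.999 TPM 3.78-fold lower than the control mean of 17.9 ± 1.26.

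Folr2 encodes folate receptor beta of resident macrophages (ENSMUSG00000032725, chr7:101839988-101857194, minus strand). It was 9.36, 10.84, 8.45 and 11.12 TPM in control mice and 3.26, 2.90, 2.87 and 5.18 TPM in Cd mice. With Cd+Se they were 1.57, 5.23, 3.51 and 4.85 TPM, and in Se mice 6.85, 13, 10.32 and 6.84 TPM. The Cd and Cd+Se groups overlapped and differed by 0.02 on the log2 scale (standard error 0.26), while both lay entirely below the control and Se groups. Their means of 3.55 ± 1.1 and 3.79 ± 1.65 TPM were 35.7% and 38.1% of the control mean of 9.94 ± 1.26.

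Cd5l encodes AIM, a secreted scavenger protein of tissue macrophages (ENSMUSG00000015854, chr3:87357881-87371073, plus strand). It was 33.19, 44.02, 34.52 and 43.12 TPM in control mice and 21.24, 15.60, 15.38 and 26.42 TPM in Cd mice. For Cd+Se the values were 12.58, 30.12, 28.52 and 30.81 TPM, and in Se mice 14.61, 44.23, 40.53 and 21.99 TPM. In Cd+Se 3 mice were above every Cd mouse and mouse 13 below every Cd mouse, so that the mean of 25.5 ± 8.67 TPM, against 19.7 ± 5.26 in Cd, described none of the 4 well. In the Se group mouse 39 was as low as the lowest Cd mice.

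C1qa, C1qb and C1qc encode the chains of C1q, the recognition part of the first complement component, for which macrophages are the main source. They lie side by side on the minus strand of chromosome 4 in the order C1qb (ENSMUSG00000036905, chr4:136880129-136886187), C1qc (ENSMUSG00000036896, chr4:136889804-136893065) and C1qa (ENSMUSG00000036887, chr4:136895917-136898803), within 18675 bases. C1qa was 32.09, 33.37, 27.98 and 35.11 TPM in control, 17.94, 12, 15.98 and 18.27 in Cd, 11.77, 24.37, 20.02 and 23.61 in Cd+Se, and 24.99, 34.98, 29.10 and 22.18 in Se mice. Its Cd mean was 49.9% and its Cd+Se mean 62.1% of control, with all mice of both groups below all control mice. C1qb ranged from 25.06 to 28.02 TPM in control, 13.23 to 18.44 in Cd, 14.92 to 25.64 in Cd+Se and 18.89 to 30.31 in Se mice. C1qc ranged from 20.85 to 26.18 TPM in control, 10.03 to 15.25 in Cd, 10.22 to 18.79 in Cd+Se and 16.59 to 28.13 in Se mice. With Cd5l, at -0.97, these were the smallest log2 differences of the 10 genes in Cd, with log2 differences in Cd of -0.97 (standard error 0.20) for C1qa, -0.81 (0.19) for C1qc and -0.70 (0.17) for C1qb. The chains also shifted a little against each other: the ratio of C1qa to C1qb in a library was 1.2 ± 0.0759 in control, 1.0 ± 0.167 in Cd, 0.95 ± 0.128 in Cd+Se and 1.16 ± 0.0821 in Se mice (n = 4 each), with all Cd+Se mice, at 0.789 to 1.09, below all control mice, at 1.12 to 1.3.

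The order of the genes by how far they were below control was compared with the spread over mice. In single Cd mice Cd163 was 0.976% to 5.86% of the control mean and Timd4 3.35% to 6.7%, so these 2 could not be ordered. Both lay wholly below Vsig4, at 17.7% to 23.5%. Marco, at 20.7% to 50.5%, Folr2, at 28.9% to 52.1%, and Clec4f, at 25% to 49.3%, overlapped with each other. The next genes were C1qa at 37.3% to 56.8%, Cd5l at 39.7% to 68.2%, C1qc at 43.9% to 66.7% and C1qb at 49.6% to 69.1%. They overlapped with one another too, and each of them with Marco and Folr2. Of all genes above Vsig4 in this order, Marco alone overlapped with it. In Cd+Se mice Cd163, at 5.21% to 11.7%, and Timd4, at 7.31% to 19.8%, again had the lowest percentages and overlapped with each other, and Timd4 now reached into the range of Vsig4, at 18.8% to 31.3%.

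**Figure D2:**
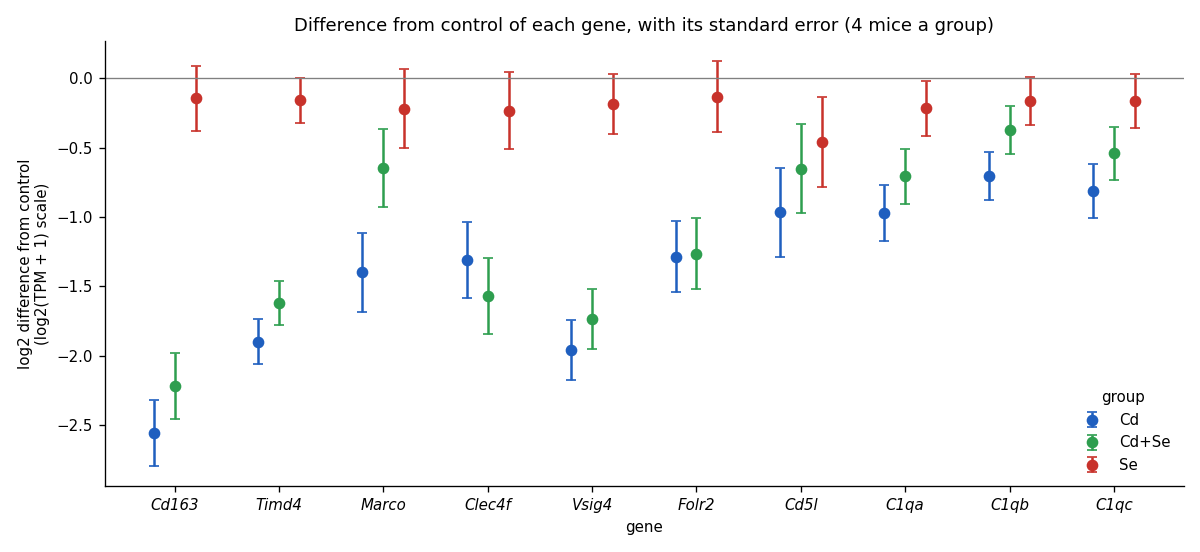
Difference of each gene from control on the log2(TPM + 1) scale, for the Cd, Cd+Se and Se groups (4 mice each), with its standard error from limma. Cd163, Vsig4 and Timd4 are the lowest in Cd, at -2.56, -1.96 and -1.90, and the Cd and Cd+Se points of Clec4f, Vsig4 and Folr2 lie close together.

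In the limma model over all 11766 genes, 10 of the 10 genes were called lower in Cd against control at an adjusted p under 0.05, where 24.9% of all tested genes were called lower and 5.82% higher. The rule had used this contrast, so nothing is read from the count. The median log2 difference of the 10 genes was -1.30, with a range from -2.56 to -0.70, against a median of -0.17 over all tested genes. Part of that general shift depends on how libraries are scaled: lower calls made up 81.1% of all calls on the TPM as given, 57.1% with quantile normalization and 44.4% with libraries centred on their medians. All 10 genes stayed lower under both scalings, where 9 were called and Cd5l was not. Cd5l was also not called without control mouse 28, 29 or 30 or without Cd mouse 2 or 5.

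Few genes of the liver were called lower in Cd+Se mice than in control, and Kupffer cell genes were among them. The limma model called 0.17% of all tested genes lower and 0.314% higher in Cd+Se against control, which are 20 and 37 genes. Of the 10 Kupffer cell genes, 5 were called lower, namely Cd163, Vsig4, Timd4, Clec4f and Folr2, at log2 differences of -2.22, -1.74, -1.62, -1.57 and -1.26. The other 5 ranged from -0.71 for C1qa to -0.37 for C1qb. The 4 Cd+Se mice did not overlap with control in 9 of the 10 genes, C1qb being the exception, where 4.98% of all tested genes had such groups. These comparisons share the control mice with that of Cd, and the members had been chosen on related values of the same libraries. Nothing is therefore read from these counts. The count of 5 became 3 when control mouse 30 was left out, which removed Clec4f and Folr2, and leaving out 1 mouse at a time gave 3 to 5. Folr2 was also not called without control mouse 27, 28 or 29 or without Cd+Se mouse 13 or 15.

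Against Se mice, which ate the same diet without Cd, the Cd+Se mice were lower in all 10 genes on average, with log2 differences from -2.07 for Cd163 to -0.19 for Cd5l. Here 4 genes were called lower, Cd163, Vsig4, Timd4 and Clec4f, against a background of 0.17% of tested genes lower and 0.544% higher. Folr2, at -1.13 (standard error 0.26), was not called. In 5 genes, those 4 and Folr2, the groups did not overlap, which held for 3.68% of all tested genes. The members had been chosen with earlier results of these same libraries known, so nothing is read from these counts. In a model of only these 2 groups 1 of the 4, Timd4, was called, and Clec4f was not called without Se mouse 40, 41 or 44 or without Cd+Se mouse 13 or 14.

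Cd+Se mice were also set directly against Cd mice, which received the same injections without the diet. None of the 10 genes was called by limma in either direction, where 13.6% of all tested genes were called higher and 2.35% lower. At an unadjusted p under 0.05, 1 of the 10, Marco, passed, where 3891 of all 11766 tested genes did. The log2 differences ranged from -0.26 for Clec4f to 0.75 for Marco with a median of 0.27, beside a median of 0.17 over all tested genes. Timd4 was the 1 gene of 10 in which the groups did not overlap, and 16.1% of all tested genes had groups apart in this direction. The members had been chosen with their low levels in mice given Cd known, so nothing is read from these counts. With a pseudocount of 0.1 in place of 1, Timd4 was called, at a log2 difference of 0.98, and Marco was called without Cd mouse 2 or without Cd+Se mouse 14. After quantile normalization or centring Clec4f and Folr2 had negative differences, of -0.42 and -0.19 after quantile normalization, and the other 8 positive ones.

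Se alone was set against control. All 10 genes had lower means in Se, by -0.13 for Folr2 to -0.46 for Cd5l on the log2 scale, 0 of them was called, and 0 had an unadjusted p under 0.05. Of all tested genes, 0% were called and 454 had an unadjusted p under 0.05. The median log2 difference was -0.18 over the 10 genes and 0.01 over all tested genes. This contrast shares its control mice with that of Cd, for which the members were known to be low. Nothing is therefore read from all 10 being lower. The groups overlapped in every gene, and the Se mice had a larger SD than the control mice in all 10: mouse 40 was the highest of its group in 10 of 10 genes, and the lowest was mouse 39 in 5 and mouse 44 in 5. Mouse 40 exceeded every control mouse in 9 of the 10 genes and mouse 39 or 44 lay below every control mouse in all 10. In the interaction of Cd and Se, which asks whether the diet moved a gene differently with Cd than without, 0 of 10 genes were called. Of all tested genes 1.04% were called in either direction. At an unadjusted p under 0.05 there was 1 of the 10, and 2505 of all 11766 tested genes. The interaction holds the Cd and control mice too, so nothing is read from its counts. The interaction was -0.03 (standard error 0.39) for Clec4f and 0.97 (standard error 0.40) for Marco, the ends of the range. With a pseudocount of 0.1 in place of 1 the upper end was Cd163 at 1.28, beside 1.19 for Timd4 and 1.18 for Marco.

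The levels were next divided by that of Clec4f in the same library, which removes the scaling of the library and shows whether genes differed unequally. Cd163 per Clec4f was 0.125 to 0.155 in control, 0.00285 to 0.0337 in Cd, 0.0206 to 0.0896 in Cd+Se and 0.115 to 0.184 in Se mice. Cd163 was therefore lower relative to Clec4f in all 8 mice given Cd than in any mouse without it. Timd4 per Clec4f was 0.0648 to 0.0912 in control and 0.00522 to 0.0114 in Cd, in Cd+Se it was 0.0155 to 0.0869 with a median of 0.0201, and in Se it was 0.0626 to 0.0897. The high Cd+Se value belonged to mouse 13, in which Clec4f was lowest and Timd4 highest of its group. Vsig4 per Clec4f was 0.397 to 0.446 in control, 0.193 to 0.298 in Cd, 0.223 to 0.451 in Cd+Se and 0.366 to 0.488 in Se mice. Marco, a receptor gene too, did not keep to 1 direction. Marco per Clec4f was 0.198 to 0.211 in control, 0.085 to 0.41 in Cd, 0.157 to 0.761 in Cd+Se and 0.152 to 0.226 in Se mice. Its median was 0.2 in control, 0.133 in Cd and 0.413 in Cd+Se mice.

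The secreted proteins went the other way from Cd163. C1qa per Clec4f was 0.709 to 0.792 in control, 0.851 to 1.12 in Cd and 1.13 to 1.57 in Cd+Se mice, 3 ranges without overlap, the last 2 lying close. In Se mice it was 0.647 to 1.05, which overlapped with control and with Cd, so that this ratio did not part the Cd mice from all mice without Cd. C1qb per Clec4f was 0.555 to 0.665, 0.762 to 1.41 and 1.23 to 1.99 in these groups, and Cd5l per Clec4f 0.814 to 1.05, 0.885 to 1.46 and 1.48 to 2.0. In Se mice C1qb per Clec4f was 0.561 to 0.834 and Cd5l per Clec4f 0.613 to 0.991. Cd5l and C1qb in Cd+Se thus had a larger share relative to Clec4f than in control in every mouse. Folr2 per Clec4f was 0.214 to 0.257 in control, 0.155 to 0.272 in Cd, 0.21 to 0.337 in Cd+Se and 0.213 to 0.287 in Se mice. Folr2 and Clec4f were lower in like proportion.

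**Figure D3:**
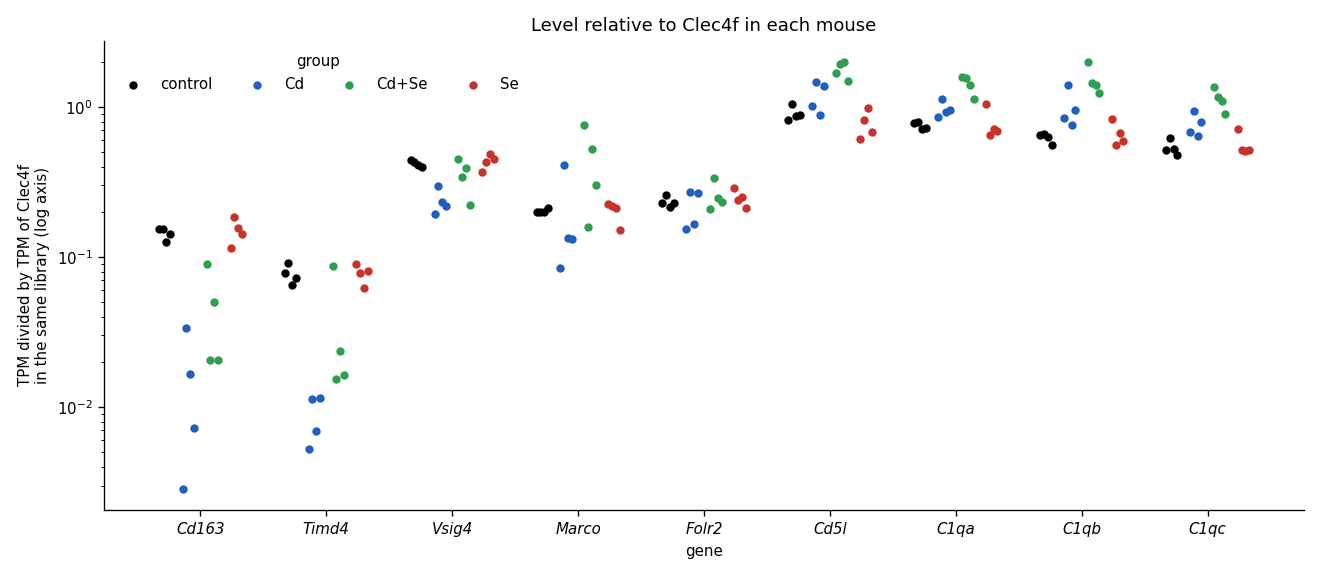
TPM of each gene divided by the TPM of Clec4f in the same library (log axis), each point being 1 mouse and each colour a group of 4. Cd163 and Timd4 lie far below the control points in Cd, at 0.00285 to 0.0337 and 0.00522 to 0.0114, Folr2 is level across groups, and Cd5l and the C1q genes lie above control in Cd+Se. Marco lies on both sides of its control points, at 0.085 to 0.41 in Cd and 0.157 to 0.761 in Cd+Se.

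Pearson correlations of log2(TPM + 1) over the 16 libraries ran from 0.58 to 0.99 over the 45 pairs of genes, with a median of 0.85. These values mostly repeat the difference between the groups, and all genes of a library share its scaling. With each group's mean removed they ran from -0.04 to 0.94 with a median of 0.70. The 3 pairs of C1q genes had the values 0.85 to 0.94, and Clec4f with C1qa had 0.91. Cd163 and Timd4 went together at 0.80 but with Clec4f at 0.35 and 0.21, and Marco with Clec4f at 0.09. Marco went with Cd163 at 0.72. The members thus varied from mouse to mouse in 2 loose sets, chosen after their values were seen and given here with no test. Clec4f, Folr2, Cd5l and the C1q genes were in the first, and Cd163, Timd4 and Marco in the second. Vsig4 had 0.66 to 0.89 with the genes of the first set, 0.79 being that with Clec4f. With Cd163, Timd4 and Marco it had 0.74, 0.44 and 0.32. Single mice weigh on these values. Cd+Se mouse 13 had the lowest Clec4f and the highest Timd4 of its group, and Cd mouse 2 the lowest Clec4f and the highest Marco. Cd163 and Timd4 were below 1 TPM in all mice given Cd, where this scale compresses their spread.

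**Figure D4:**
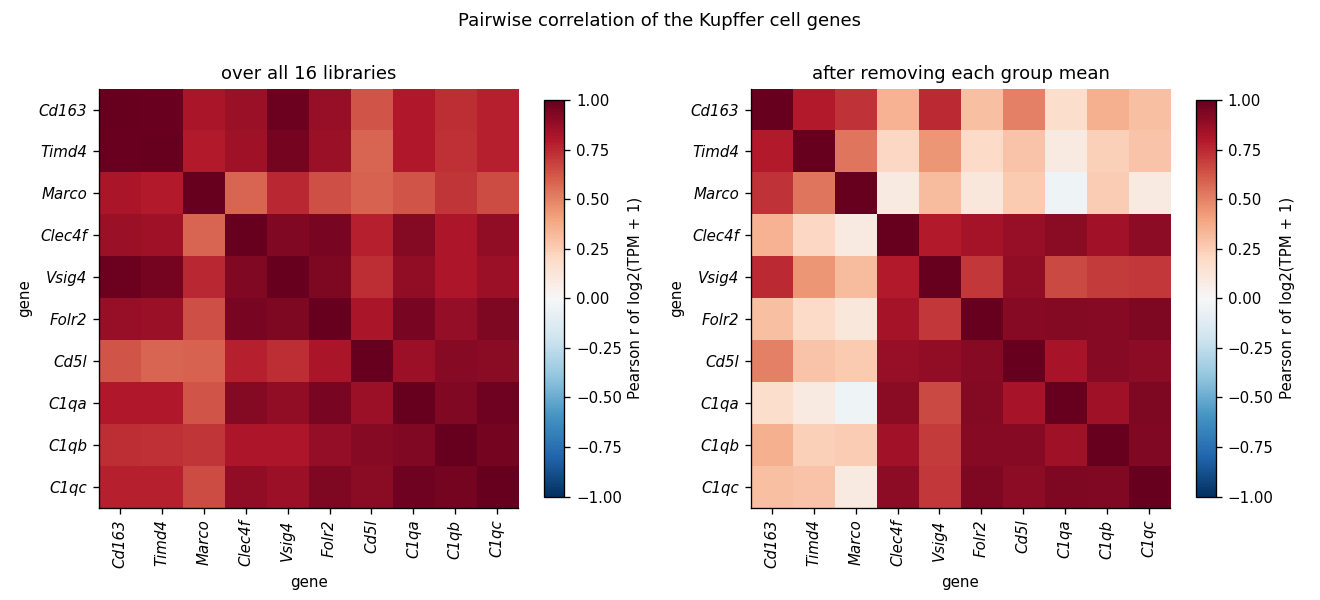
Pearson r of log2(TPM + 1) between the genes, over all 16 libraries (left) and after each group's mean was removed (right), on a colour scale from -1 to 1. On the right, the C1q genes, Folr2, Cd5l and Clec4f keep high values, while Marco and Timd4 have low values with them, down to -0.04 for Marco with C1qa.

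The 5 tested genes outside the 10 whose levels followed the mean standardized profile of the 10 most closely over the 16 libraries were Immt (r = 0.91), Fcna (0.90), Tbc1d16 (0.90), Slc25a10 (0.90) and Pafah2 (0.90). Fcna, the gene of ficolin A of Kupffer cells, was the macrophage gene among them. It was 21.3 ± 3.02 TPM in control, 12.6 ± 2.41 in Cd, 13.1 ± 4.51 in Cd+Se and 19.4 ± 6.32 in Se mice. Immt, which encodes a protein of the mitochondrial inner membrane and is used in most cell types, was 49.3 ± 3.26, 35.4 ± 4.58, 38.6 ± 4.04 and 49.4 ± 2.37 TPM in these groups. A close profile over 16 libraries was thus also found in genes that are no macrophage markers.

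Promoter sequence was looked at for the genes that were called lower in Cd+Se against control, to show what the members may share by letters alone. RefSeq promoter windows in GRCm38.p6, from 250 bases before to 50 bases after a gene's start, were given for 9 of the 10 genes in 10 windows, and C1qa had no entry. The stretch before the start is printed for 5 genes, cut where GENCODE already begins the transcript. Capitals mark matches, on either strand, to GGAAGT, the core of sites for ETS factors such as PU.1, the master regulator of macrophages, or to GGAANNGAA, the form of sites shared by ETS and IRF factors, which can overlap it. The stretches lie at chr6:124304401-124304650 (plus strand), chr11:46810549-46810798 (plus), chr6:83656188-83656366 (minus), chrX:96293439-96293688 (minus) and chr7:101857195-101857440 (minus) and read 5′ to 3′ along the gene.
Cd163: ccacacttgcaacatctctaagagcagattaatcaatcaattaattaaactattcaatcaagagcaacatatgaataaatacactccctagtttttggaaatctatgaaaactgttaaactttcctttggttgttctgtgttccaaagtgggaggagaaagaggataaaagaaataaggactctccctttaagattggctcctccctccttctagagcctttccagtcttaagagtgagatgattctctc
Timd4: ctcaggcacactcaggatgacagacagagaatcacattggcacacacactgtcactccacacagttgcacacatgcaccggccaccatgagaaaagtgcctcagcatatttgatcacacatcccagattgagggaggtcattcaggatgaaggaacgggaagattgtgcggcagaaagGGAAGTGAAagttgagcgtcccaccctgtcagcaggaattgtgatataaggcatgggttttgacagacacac
Clec4f: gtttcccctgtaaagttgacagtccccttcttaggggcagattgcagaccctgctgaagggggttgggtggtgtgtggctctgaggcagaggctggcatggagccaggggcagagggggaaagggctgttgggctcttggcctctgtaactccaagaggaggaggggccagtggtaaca
Vsig4: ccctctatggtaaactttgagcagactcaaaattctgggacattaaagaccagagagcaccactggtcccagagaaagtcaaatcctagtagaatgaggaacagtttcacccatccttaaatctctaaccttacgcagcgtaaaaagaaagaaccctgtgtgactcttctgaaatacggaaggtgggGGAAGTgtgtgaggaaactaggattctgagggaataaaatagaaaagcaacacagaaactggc
Folr2: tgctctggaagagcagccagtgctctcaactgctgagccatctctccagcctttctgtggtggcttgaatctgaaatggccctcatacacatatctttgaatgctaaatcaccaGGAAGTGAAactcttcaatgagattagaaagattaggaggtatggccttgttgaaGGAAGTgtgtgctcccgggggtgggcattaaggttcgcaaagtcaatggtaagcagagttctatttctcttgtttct

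In Timd4 the letters GGAAGTGAA, which match both motifs, begin 72 bases before the end of the printed stretch. In Folr2 the same letters begin 132 bases before its end and a second GGAAGT 77 bases before it, and in Vsig4 GGAAGT begins 63 bases before the end. Over the whole windows GGAAGT was held by 6 of the 9 genes, C1qb, C1qc, Clec4f, Folr2, Timd4 and Vsig4, and by 23.8% of all 32851 promoter windows. In Clec4f the match lies beyond the printed bases. GGAANNGAA was held by Folr2, Marco and Timd4, and by 8.24% of all windows. TGCTGAC, the half-site of MAF factors, was held by Timd4 alone of the 9 and by 4.67% of all windows. The motifs were picked after the promoters were seen, and a match describes letters and no binding. Cd163, with the lowest percentage of control in Cd, held none of these motifs in its window.

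Of 16 other genes of resident liver macrophages, 13 were tested (Kcna2, Adrb1 and Slc16a9 were below a mean of 1 TPM). In Cd against control 2 fell, 1 rose and 10 did not pass the test (limma, adjusted over all genes), where 24.9% of all tested genes were called lower and 5.82% higher. Their median log2 difference was -0.38, beside -0.17 over all tested genes. No contrast with the Kupffer cell genes is drawn from this, since those were chosen for being low. Fcna fell by 0.73 (standard error 0.24, limma adjusted p = 0.0304), and Nr1h3, which encodes the oxysterol receptor LXR alpha that hepatocytes use too, fell by 0.46 (standard error 0.12, limma adjusted p = 0.00794). Stab1, a scavenger receptor also made by sinusoidal endothelium, rose from 10.6 ± 1.09 to 25.4 ± 9.08 TPM, by 1.13 in log2 units (limma adjusted p = 0.0066, standard error 0.28). Neither fall passed the test after median centring, nor that of Fcna without control mouse 28, 29 or 30 or Cd mouse 2 or 5, and the rise of Stab1 did. Spic, a transcription factor of haem-recycling macrophages, stood at 1.15 TPM in control and 1.34 in Cd, and Mrc1, the mannose receptor gene, at 14.6 and 12.6 TPM, with neither called. In Cd+Se against Cd 0 of the 13 were called by limma, where 13.6% of all tested genes were called higher and 2.35% lower. At an unadjusted p under 0.05 there were 4 of the 13, and 3891 of all 11766 tested genes.

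Genes that all macrophages use were tested in the same model, 18 of 18. In Cd against control Adgre1, the gene of the F4/80 antigen, fell by 1.24 in log2 units (limma adjusted p = 0.000895, standard error 0.22), from 4.43 ± 1.06 to 1.3 ± 0.463 TPM. Csf1r, the receptor for the growth factor that macrophages need to survive, fell by 0.83 (standard error 0.19, limma adjusted p = 0.00499), and the other 16 did not pass, so that 2 of 18 fell where 24.9% of all tested genes did. In Cd+Se against Cd 6 of the 18 rose and 0 fell, where 13.6% of all tested genes rose and 2.35% fell. Of these, Lyz2 (lysozyme) rose by 0.83 (limma adjusted p = 0.00972), Laptm5 by 0.69 (limma adjusted p = 0.0172), Adgre1 by 0.78 (limma adjusted p = 0.0259) and Tyrobp by 0.71 (limma adjusted p = 0.0276). After centring 3 of the 18 rose, Laptm5, Lgmn and Lyz2, and after quantile normalization 4, these and Adgre1. Without Cd mouse 5 or without Cd+Se mouse 14, Laptm5, Adgre1 and Tyrobp were not called. Adgre1 in Cd+Se mice, at 2.96 ± 1.01 TPM, was 2.28 times its Cd mean, and the same ratio of means ran over the 10 Kupffer cell genes from 0.849 for Clec4f to 2.75 for Timd4.

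Markers of cells that come from the blood were looked at because they share the macrophage compartment. Of 12 genes of monocytes and recruited macrophages, 7 were tested and 4 rose in Cd against control, where 5.82% of all tested genes rose, S100a4 by 1.31 (limma adjusted p = 0.0164), Lgals3 by 0.89 (limma adjusted p = 0.00588), Ly6c2 by 0.66 (limma adjusted p = 0.0168) and Ccr2, the chemokine receptor of blood monocytes, by 0.56 (limma adjusted p = 0.0269). S100a4 was not called without Cd mouse 5, and neither Ly6c2 nor Ccr2 without control mouse 29 or Cd mouse 2. Ly6c2 and Ccr2 averaged 0.547 and 0.727 TPM in control and 0.713 and 0.463 TPM in Se mice. They reached the mean of 1 TPM needed for testing only through mice given Cd, which favoured a rise. Nothing is therefore read from the count of 4. Their summed level over all 12 genes ranged from 42.4 to 66.0 TPM in control, 55.1 to 87.6 in Cd, 64.6 to 152 in Cd+Se and 42.1 to 53.4 in Se mice, and Clec4e and Gpnmb were listed at 0 in some libraries. Spp1, not called in Cd against control, was the largest part of this sum. Its means were 36.6, 39.2, 37.7 and 31.5 TPM in these groups. In Cd+Se against Cd 0 of the 7 were called, where 13.6% of all tested genes were called higher and 2.35% lower. At an unadjusted p under 0.05 there were 3 of the 7, and 3891 of all 11766 tested genes. Of 11 neutrophil genes, 4 were tested and 3 rose in Cd, S100a8 by 1.55 (limma adjusted p = 0.00029), S100a9 by 1.53 (limma adjusted p = 0.00378) and Retnlg by 1.14 (limma adjusted p = 0.00602), while Mpo, Elane, Ly6g, Camp, Ltf, Ngp and Retnlg were listed at 0 in at least 1 library. Retnlg, at 0.223 TPM in control and 0.365 in Se mice, also reached 1 TPM only through mice given Cd. The same held for Csf3r, at 0.74 and 0.615 TPM, which was not called. Nothing is read from the count of 3 either. The summed level of the 11 neutrophil genes was 6.78 to 17.1 TPM in control, 35.8 to 43.4 in Cd, 47.0 to 78.1 in Cd+Se and 6.18 to 10.5 in Se mice. S100a8 and S100a9 were the largest parts of this sum, with means of 12.6 and 21.2 TPM in Cd. Ly6g, Mpo and Elane were near 0, with means of 0.04, 0.06 and 0.11 TPM in Cd. The part of these cells in the levels of the Kupffer cell genes was not tested.

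**Figure D5:**
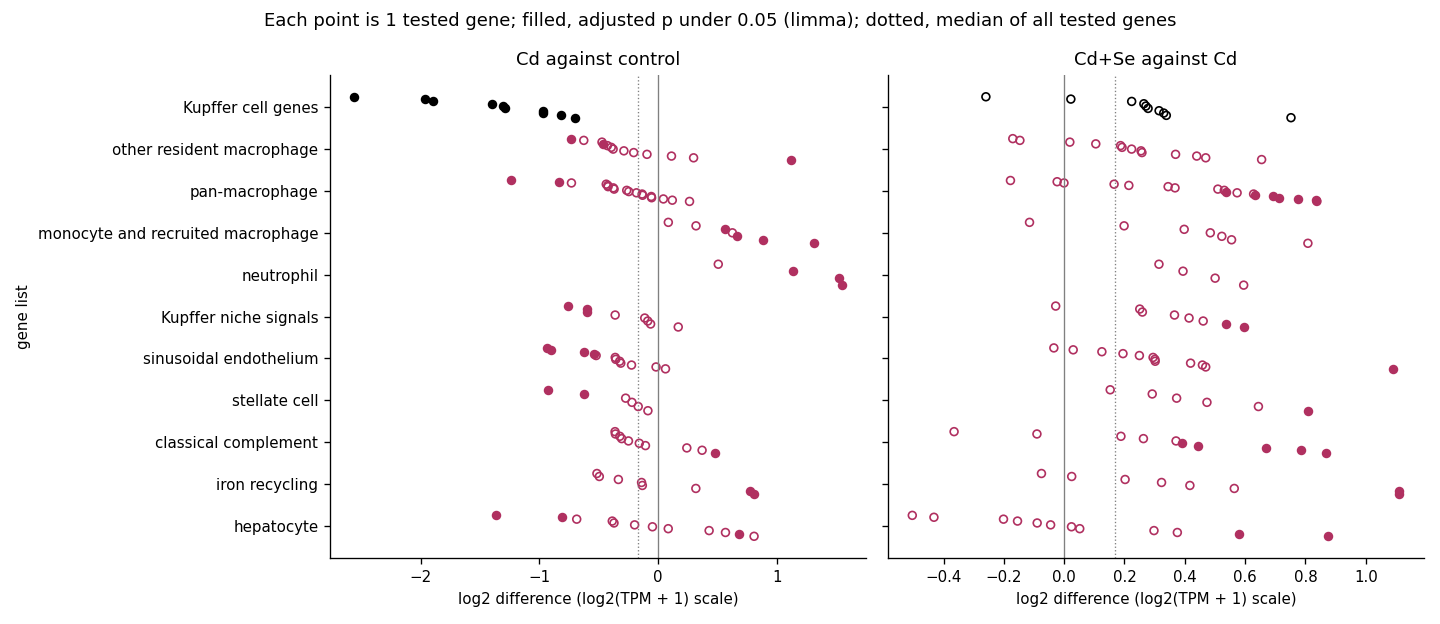
Log2 difference (log2(TPM + 1) scale) of each tested gene by list, for Cd against control (left) and Cd+Se against Cd (right), filled where the limma adjusted p was under 0.05, with a dotted line at the median of all tested genes (-0.17 and 0.17). On the left the Kupffer cell genes, chosen for being low, span -2.56 to -0.70, and on the right they span -0.26 to 0.75 with none filled, and the lists were not tested against each other.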

How the data were processed

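Liver poly(A) RNA of 16 mice was sequenced on an Illumina NovaSeq. The authors deposited 1 table of TPM values for 57010 genes by Ensembl identifier. The submitters' processing notes name fastp, HISAT2 and StringTie without versions and the build GRCh38, a human build, although the identifiers are those of mouse, so the mouse build used is not given in the sources used here. TPM hold no depth, and precision rests on 4 mice a group; each title names 2 replicates of 1 mouse, which are held as 1 library. Positions were taken from GENCODE M21 (GRCm38) by identifier.

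Levels were compared as log2(TPM + 1) with limma 3.58.1 in R 4.3.3 (11766 genes averaging 1 TPM or more, 1 model of 4 groups, eBayes with a trend, 6 contrasts, Benjamini-Hochberg adjustment over all genes tested, threshold 0.05). The fit was tested on simulated data. Alternatives were a pseudocount of 0.1, no filter, a mean of at least 5 TPM, quantile normalization, centring on the library median, eBayes without a trend, only the groups compared, an absolute log2 difference of at least 1, and each mouse left out; for lists other than the resident macrophage genes these were added after seeing the data. The members and the 12 other gene lists were chosen with earlier results of these data known. Named were all 10 members, in each list up to 4 genes with the smallest adjusted p past 0.05 in Cd against control and in Cd+Se against Cd, Mt1, Mt2, and the 5 genes most like the members' mean profile; Spic, Mrc1, Lgmn and genes listed at 0 were added after their values were seen.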

Additional observations from a re-analysis of the deposited data

Results flagged for a closer look

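In a group of 4, a mouse was held to stand apart where its gap to the nearest other mouse was a larger share of the group's range than Dixon's critical value for 4 samples. This was looked at in 196 groups of 4 mice, over the members and the other genes named by rule, and found in 8, where chance gives about 1 in 20, or 9.8. Of the Kupffer cell genes, Timd4 in Cd mouse 6 (0.22 TPM, the others 0.11 to 0.12) had a gap of 0.909 of the range, and Folr2 in the same mouse (5.18 TPM, the others 2.87 to 3.26) one of 0.831. Cd5l in Cd+Se mouse 13 (12.58 TPM, the others 28.52 to 30.81) had a gap of 0.874.

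The same mouse 13 was highest in Cd93 (2.97 TPM, the others 1.78 to 1.92), with a gap of 0.882, and in S100a9 (47.48 TPM, the others 27.57 to 30.11), with a gap of 0.872. Se mouse 39 was lowest in Serping1, with a gap of 0.891, Se mouse 40 highest in Hgf, with 0.893, and control mouse 27 lowest in Cps1, with 0.847.

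On the TPM as given, the effect of Se differed with and without Cd, by the interaction term, in 2 of the named genes outside the members. For Laptm5 the interaction was 1.07 on the log2 scale (limma adjusted p = 0.048), with 4.73 ± 0.774 TPM in control, 3.43 ± 0.699 in Cd, 6.2 ± 1.38 in Cd+Se and 3.44 ± 0.877 in Se mice. For Lyve1 it was 1.62 (limma adjusted p = 0.0434), with 2.79 ± 0.871, 3.13 ± 1.5, 7.31 ± 1.13 and 1.57 ± 0.226 TPM in these groups. Both adjusted p-values were close to the threshold, and both genes were still called after quantile normalization and after centring. Which other named genes were called depended on scaling: Cps1 after both, Itgb2 after quantile normalization, and Rbpj and Smad4 after centring.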

How the results depend on the processing

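The count of members called in Cd against control was 10 and became 6 with an absolute log2 difference of at least 1. That in Cd+Se against Cd was 0 and became 1 with a pseudocount of 0.1. That in Cd+Se against control was 5 and became 3 with a mean of at least 5 TPM, where Cd163 and Timd4 were not tested, and 3 with only the groups compared. That in Cd+Se against Se was 4 and became 2 with a mean of at least 5 TPM and 1 with only the groups compared. The count of other resident macrophage genes in Cd against control was 3 and became 1 with centring, 1 with an absolute log2 difference of at least 1 and 6 with only the groups compared; that in Cd+Se against control was 0 and became 1 with no filter. The median log2 difference of the members in Cd against control, -1.30, became -1.08 with centring. Leaving out 1 mouse gave 9 to 10, 0 to 1 and 3 to 5 members called in Cd against control, Cd+Se against Cd and Cd+Se against control, and 0 to 1 other resident genes in Cd+Se against Cd. Over 687 refits of the 44 results of named genes outside the members, 0 reversed and 160 were not called, and 7 results were called in all of theirs. The cause of changes other than fewer genes or mice was not tested. With 4 mice a group and unknown depth, levels such as 0.06 TPM carry an error that cannot be given. No paired analysis was possible because the groups share no mouse numbers.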

Other observations

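Genes of the cells around Kupffer cells are given as values from the same model, in which 24.9% of all tested genes were called lower and 5.82% higher in Cd against control, and 13.6% higher and 2.35% lower in Cd+Se against Cd. Counts below are to be read against these shares. Of 11 niche signals, 8 were tested. In Cd against control 3 fell, Rbpj, the nuclear partner of Notch, by 0.76 on the log2 scale (limma adjusted p = 0.000612), Smad4 by 0.60 (limma adjusted p = 0.0102) and Eng by 0.60 (limma adjusted p = 0.0474), of which Eng was not called after quantile normalization or centring. In Cd+Se against Cd Rbpj rose by 0.60 (limma adjusted p = 0.00878) and Smad4 by 0.54 (limma adjusted p = 0.0326). Of 12 genes of sinusoidal endothelium, all tested, 4 fell in Cd, Dnase1l3 by 0.93 (limma adjusted p = 0.0058), Kdr by 0.90 (limma adjusted p = 0.0204), Stab2 by 0.62 (limma adjusted p = 0.0205) and Cdh5 by 0.54 (limma adjusted p = 0.0406), a share of the list not far from that of all genes. Of the 4, Dnase1l3 was called after quantile normalization or centring. Lyve1 rose in Cd+Se against Cd by 1.09 (limma adjusted p = 0.0138). Of 8 stellate cell genes, 6 were tested, and in Cd Reln fell by 0.93 (limma adjusted p = 0.0104) and Hgf by 0.62 (limma adjusted p = 0.0264), while Hgf rose by 0.81 in Cd+Se against Cd (limma adjusted p = 0.017). The fall of Hgf was not called after centring.

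Of 8 genes of iron recycling, the task of macrophages that clear red cells, Hmox1 (haem oxygenase) rose by 0.81 (limma adjusted p = 0.0211) and Hpx (hemopexin, from hepatocytes) by 0.77 (limma adjusted p = 0.0471) in Cd, though with quantile normalization Hpx was not called. In Cd+Se against Cd Hmox1 rose by 1.11 (limma adjusted p = 0.0122), to 42.5 ± 16.8 TPM, and Slc11a1 by 1.11 (limma adjusted p = 0.0145). Of 13 complement genes that act with C1q, 10 were tested. Calr rose in Cd by 0.48 (limma adjusted p = 0.0275), and in Cd+Se against Cd 5 rose, among them Itgb2 by 0.87 (limma adjusted p = 0.0142), C3 by 0.79 (limma adjusted p = 0.0154), Cd93 by 0.67 (limma adjusted p = 0.0181) and Serping1 by 0.45 (limma adjusted p = 0.0324). Cd93 averaged 0.64 TPM in control, 0.97 in Cd and 0.462 in Se mice. It reached the mean of 1 TPM needed for testing only through Cd+Se mice, at 2.12 TPM, which favoured a rise. The tally of complement genes in Cd depended on scaling, with 1 higher and 3 lower (C1ra, C1s1 and C3) after quantile normalization and 3 higher and 0 lower after centring, and in Cd+Se against Cd centring gave 3 higher and 1 lower. Of 12 hepatocyte genes, Cps1 fell in Cd by 1.36 (limma adjusted p = 0.000169), Hnf4a fell by 0.81 (limma adjusted p = 0.00173) and Trf rose by 0.69 (limma adjusted p = 0.00491), while in Cd+Se against Cd Cps1 rose by 0.87 (limma adjusted p = 0.00838) and Hnf4a by 0.58 (limma adjusted p = 0.0239). In Cd against control the 12 hepatocyte genes gave 1 higher and 2 lower, 0 higher and 4 lower (Arg1, Ass1, Cps1 and Hnf4a) after quantile normalization, where Trf was not called, and 3 higher and 2 lower after centring. In Cd+Se against Cd centring gave 2 higher and 2 lower. Of 6 dendritic cell genes, 2 were tested and Clec9a rose in Cd by 0.64 (limma adjusted p = 0.0355). Of 10 lymphocyte genes, 1 was tested and was not called in these contrasts (0 at an unadjusted p under 0.05, limma). Of the genes above, Eng, Cdh5, Hgf, Hpx, Calr, Clec9a, Stab2, Kdr and Hmox1 in Cd against control and Smad4, Hgf, Hnf4a, C3, Cd93 and Serping1 in Cd+Se against Cd were not called when certain single mice were left out, among them control mouse 28 or 29 or Cd mouse 5.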
